A study of Mus musculus with 8 samples.

Results

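The HOX genes are the homeobox transcription factors that lie side by side in the clusters Hoxa, Hoxb, Hoxc and Hoxd. They were chosen by symbol alone, as every gene of the expression table named Hoxa, Hoxb, Hoxc or Hoxd with a paralogue number, which gave 39 of the 24421 genes. Messenger RNA was sequenced from W9.5 mouse embryonic stem cells, which are WT, and from Clone 104, a single line that is Hira-null, so that the genotype and the clone cannot be told apart. Both lines carried H3.3 with an HA tag. The groups were Hira-null at day 15, WT at day 15, Hira-null at day 0 and WT at day 0, with 2 libraries in each, each from its own biological sample. Day 0 cells were kept undifferentiated with LIF and serum, and day 15 cultures came from hanging drop differentiation towards beating cardiac cells. Expression was given as FPKM, the fragments of a gene per kilobase, scaled by the size of the library.

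HOX proteins bind DNA together with cofactors such as PBX and MEIS and give cells their position along the axis from head to tail. Genes of one paralogue group, the same number in different clusters, descend from a common ancestor and often act alike. The order of the genes in a cluster follows their order of activation in the embryo, with low numbers early and towards the head and high numbers late and towards the tail, the limb ends and the genital region. In undifferentiated stem cells the clusters are known to be held silent by Polycomb proteins, and retinoic acid, FGF, WNT and CDX factors are known to open them. HIRA is a chaperone that places the histone variant H3.3 into chromatin outside DNA replication.

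In the NCBIM37 (mm9) assembly the 11 Hoxa genes span chromosome 6 from 52105366 to 52210874 on the minus strand, and the 10 Hoxb genes span chromosome 11 from 96055630 to 96229570 on the plus strand. The 9 Hoxc genes lie on chromosome 15 from 102751534 to 102867274, and the 9 Hoxd genes on chromosome 2 from 74506367 to 74603200, both on the plus strand. All 39 are annotated as protein coding. Exons of 8 members overlap a gene on the other strand and those of 12 overlap another gene on the same strand, such as Hoxd3 with Hoxd4, Hoxb7 with Hoxb8 and Hoxa2 with Hoxa3, and the sources used here do not say how such reads were shared out.

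The start sites of 4 members are shown because their levels differed between the genotypes in different ways. Hoxd10 and Hoxb1 were lower in the libraries labelled Hira-null at day 15, Hoxa7 was higher there, and Hoxd1 was higher in Hira-null at day 0. Each window runs from 250 bases before to 50 bases after a RefSeq start, was taken from a RefSeq table on GRCm38.p6 and was found once, base for base, in its mm9 chromosome. The windows are chr2:74529698-74529997 on the plus strand, chr11:96226822-96227121 on the plus strand, chr6:52168523-52168822 on the minus strand and chr2:74600787-74601086 on the plus strand, where minus strand windows are printed as their reverse complement. Capitals mark, on either strand, TTTATG, the core that CDX and posterior HOX proteins are known to prefer, AGGTCA, a core of the sites of retinoic acid receptors and other nuclear receptors, and TGATNNAT, a joint site of PBX and HOX proteins.
Hoxd10: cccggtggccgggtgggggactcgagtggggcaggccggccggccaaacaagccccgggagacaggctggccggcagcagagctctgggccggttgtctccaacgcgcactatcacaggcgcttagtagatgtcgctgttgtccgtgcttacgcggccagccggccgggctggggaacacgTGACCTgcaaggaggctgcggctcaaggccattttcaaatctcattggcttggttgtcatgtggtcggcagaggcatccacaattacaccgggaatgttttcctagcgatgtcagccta
Hoxb1: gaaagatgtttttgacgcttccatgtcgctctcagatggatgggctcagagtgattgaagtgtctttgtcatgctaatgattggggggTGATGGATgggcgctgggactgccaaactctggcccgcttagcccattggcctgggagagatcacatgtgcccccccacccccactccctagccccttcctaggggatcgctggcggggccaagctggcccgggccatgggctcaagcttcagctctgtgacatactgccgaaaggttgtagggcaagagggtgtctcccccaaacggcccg
Hoxa7: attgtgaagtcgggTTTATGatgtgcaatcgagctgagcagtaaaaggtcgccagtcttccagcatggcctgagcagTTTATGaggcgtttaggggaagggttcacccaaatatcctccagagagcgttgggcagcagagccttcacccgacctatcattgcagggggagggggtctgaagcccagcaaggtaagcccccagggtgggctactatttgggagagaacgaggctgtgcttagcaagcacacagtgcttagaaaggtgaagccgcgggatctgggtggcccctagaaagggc
Hoxd1: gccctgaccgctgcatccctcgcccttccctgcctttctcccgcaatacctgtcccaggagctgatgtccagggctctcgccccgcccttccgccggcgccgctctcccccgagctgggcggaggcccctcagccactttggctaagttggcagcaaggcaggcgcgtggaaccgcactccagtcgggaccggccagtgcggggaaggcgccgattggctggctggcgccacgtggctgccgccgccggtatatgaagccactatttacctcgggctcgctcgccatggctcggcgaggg
The Hoxa7 window held TTTATG 2 times, the Hoxd10 window held AGGTCA once on the opposite strand, the Hoxb1 window held TGATNNAT once, and the Hoxd1 window held none of them. Of all 32851 windows in the table, 11.9% held TTTATG, 16.3% AGGTCA and 8.85% TGATNNAT. The table held 24 windows for 22 of the 39 members, of which 5, 7 and 4 held these motifs in the same order. These HOX windows held between 4 and 45 CpG dinucleotides with a median of 14.5, where the median of all windows was 7. Among those printed, Hoxd1 held 29, Hoxd10 22, Hoxb1 10 and Hoxa7 9.

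Hira itself had 12.4 and 11.4 FPKM in Hira-null at day 0, against 27.3 and 28.5 FPKM in WT, a difference of -1.17 ± 0.10 (SE) on the log2(FPKM + 1) scale (limma, Benjamini-Hochberg adjusted p = 8.48e-05). At day 15 it had 16.7 and 19.8 FPKM in the libraries labelled Hira-null, against 15.8 and 15.5 FPKM in WT, and the difference of 0.20 ± 0.11 did not pass the test (adjusted p = 0.167). The day 15 libraries labelled Hira-null therefore did not read lower for Hira, and a value over the whole gene does not show whether the altered part of the gene was transcribed. Recovered from the steps of the FPKM values, the libraries held between 6914095 and 11106737 fragments. The day 0 cells carried stem cell markers, with Pou5f1 at 904 and 911 FPKM in Hira-null and 641 and 601 FPKM in WT. At day 15 the cardiac list of 10 genes summed to 125 and 135 FPKM in the libraries labelled Hira-null, against 194 and 199 FPKM in WT.

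HOX expression was low throughout. The 39 genes together summed to 43.7 and 46.6 FPKM in the day 15 libraries labelled Hira-null, against 93.7 and 96 FPKM in WT. At day 0 they summed to 24.3 and 27.2 FPKM in Hira-null, against 5.89 and 9.36 FPKM in WT. The libraries labelled Hira-null were thus below both WT libraries at day 15 and above both at day 0. The number of members at FPKM 1 or more in both libraries was 11 at day 15 in those labelled Hira-null and 28 in WT, and 5 at day 0 in Hira-null and 0 in WT. At their smallest whole lengths the 39 genes held 841 and 985 fragments in the day 15 libraries labelled Hira-null, against 1985 and 2542 in WT, and 369 and 513 in Hira-null at day 0, against 97 and 168 in WT, so that single genes at day 0 rest on few fragments. Replicates of a group differed by a median of 0.10 to 0.21 on the log2(FPKM + 1) scale over the members, and by at most 1, for Hoxb6 at day 15 in the libraries labelled Hira-null.

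**Figure D1:**
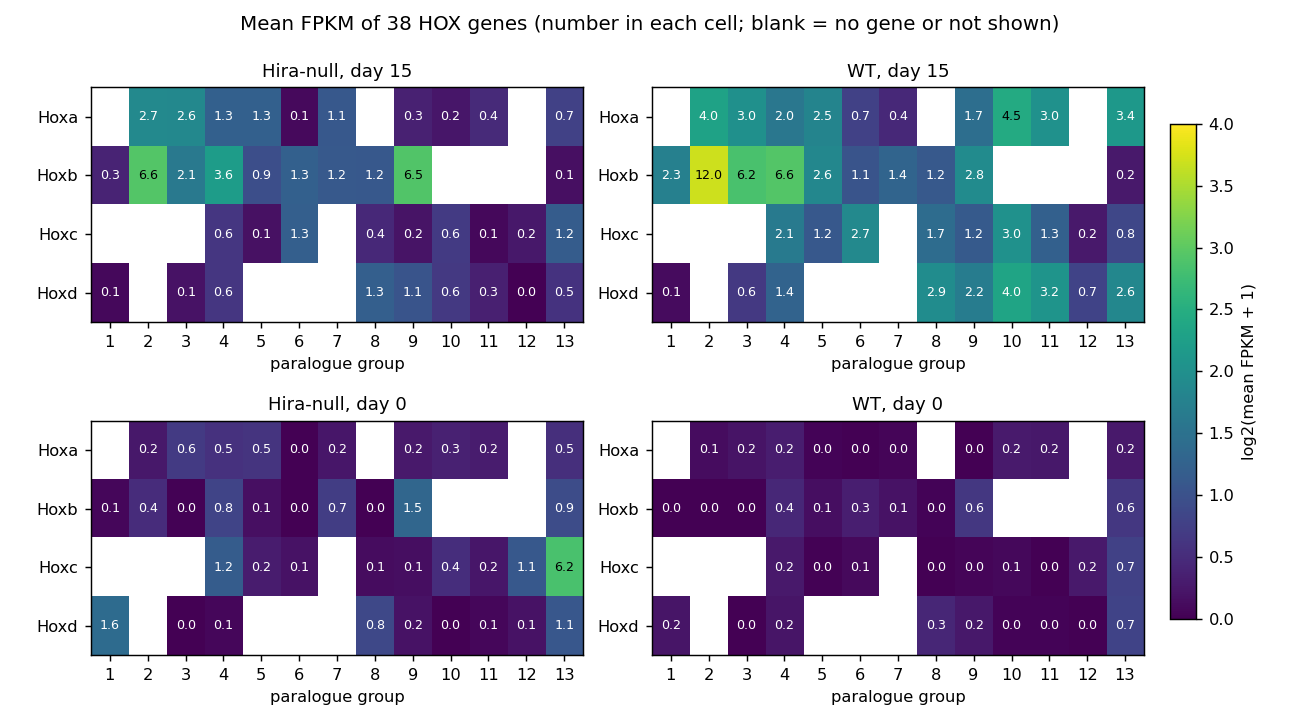
Mean FPKM of 38 of the 39 HOX genes in each group, with clusters down and paralogue groups 1 to 13 across, coloured by log2(mean FPKM + 1) with the mean in each cell. Hoxb2 was the highest gene at day 15 in both genotypes (6.64 FPKM in libraries labelled Hira-null and 12 FPKM in WT), while at day 0 Hoxc13 led in Hira-null (6.24 FPKM).

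With no filter on low values, 22 of the 39 members were lower and 2 were higher at day 15 in the libraries labelled Hira-null than in WT, where 13.2% of all 19134 genes were lower and 13.5% were higher. Among the 33 members that reached FPKM 1 in 2 of the 8 libraries or more, 21 were lower and 2 higher, where 18.8% of all 14337 genes that passed this filter were lower and 18.6% higher. The test was limma on log2(FPKM + 1), and the differences given for single genes come from the filtered table unless stated. A gene was called at an adjusted p of 0.05 or less. The median difference of the 39 members was -0.72, and that of all 19134 genes was 0.00. Of the 33 members, 19 passed the filter only through WT at day 15, with fewer than 2 of the other 6 libraries at FPKM 1. A difference in these, Hoxb6 aside, was favoured by the filter itself, so that the filtered count and their p-values at day 15 are descriptions. In the Hoxa cluster they were Hoxa4, Hoxa9, Hoxa10, Hoxa11 and Hoxa13, and in the Hoxb cluster Hoxb1, Hoxb5, Hoxb6 and Hoxb8. In the Hoxc cluster they were Hoxc5, Hoxc6, Hoxc8, Hoxc10 and Hoxc11, and in the Hoxd cluster Hoxd4, Hoxd9, Hoxd10, Hoxd11 and Hoxd13. These 19 hold 16 of the 21 lower genes, and the other 14 members hold 5 lower and 2 higher. Hoxb6 is counted in the 19 but reached FPKM 1 in a library of each genotype at day 15, at 2.12 FPKM in a library labelled Hira-null and 1.55 FPKM in WT. On this scale the difference of a gene at low FPKM is smaller than its fold. Fewer cells that express a gene and less RNA in each cell cannot be told apart in such libraries.

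By cluster, and with no filter, 5 of 11 Hoxa genes, 4 of 10 Hoxb genes, 6 of 9 Hoxc genes and 7 of 9 Hoxd genes were lower in the libraries labelled Hira-null at day 15. There 1 Hoxa gene and 1 Hoxb gene were higher, and of all 19134 genes 13.2% were lower and 13.5% higher. By position, 4 of the 8 anterior genes (paralogue groups 1 to 3), 7 of the 15 middle genes (groups 4 to 8) and 11 of the 16 posterior genes (groups 9 to 13) were lower, and 1 middle and 1 posterior gene were higher. The median differences were -0.45, -0.65 and -1.11 in that order. Posterior genes summed to 12.3 and 13.4 FPKM in the libraries labelled Hira-null at day 15, against 34.5 and 35.5 FPKM in WT, middle genes to 15.5 and 17.3 FPKM, against 28.2 and 32.5 FPKM in WT, and anterior genes to 15.9 and 15.9 FPKM, against 30.9 and 28 FPKM in WT. Posterior genes held 28.2% and 28.8% of the HOX total in the libraries labelled Hira-null and 36.8% and 37% in WT. Whether positions differ from each other was not tested, since the gene set, though defined by symbol, was taken up with results of these data known.

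**Figure D2:**
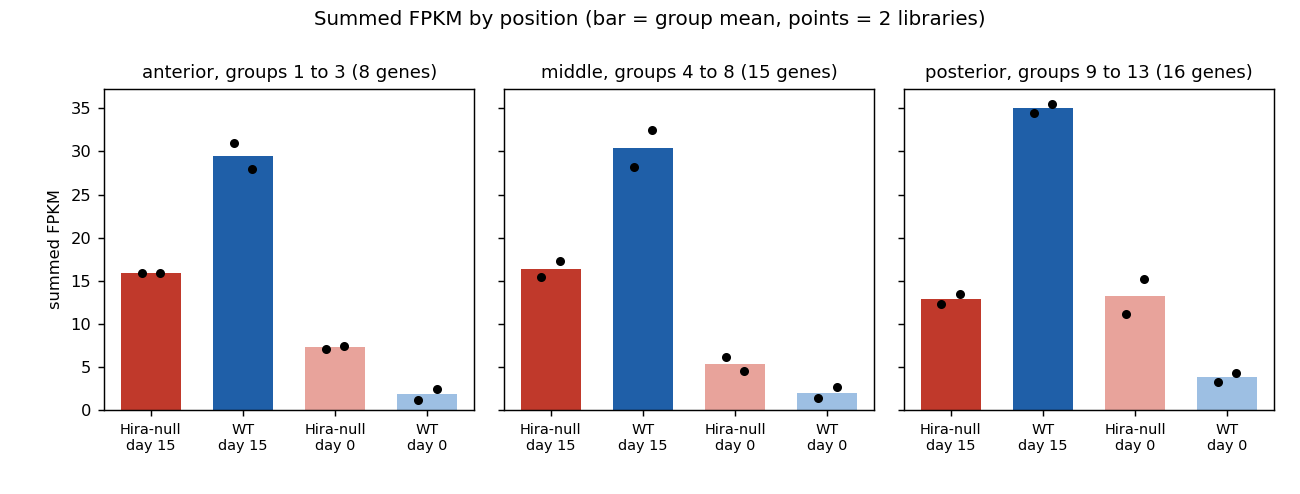
Summed FPKM of the anterior (8), middle (15) and posterior (16) HOX genes, as group means (bars) and single libraries (points). The 2 day 15 libraries labelled Hira-null lay below both WT libraries in each class, and both Hira-null libraries at day 0 lay above both WT libraries in each class.

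Of the 33 members tested, the posterior gene Hoxa10 showed the widest gap at day 15. Hoxa10, which patterns the lumbar spine and the uterus, had 0.143 and 0.234 FPKM in the libraries labelled Hira-null at day 15, against 4.26 and 4.64 FPKM in the WT libraries. Hoxa10 at day 0 had 0.278 and 0.29 FPKM in Hira-null, against 0.216 and 0.226 FPKM in WT. Its WT mean at day 15 was 23.6 times that of the libraries labelled Hira-null (-2.20 ± 0.16, adjusted p = 4.92e-05), which held only 4 and 7 fragments. These 2 libraries stood at the level of the undifferentiated cells of both genotypes. Hoxa11, needed for the forearm, kidney and uterus, had 0.147 and 0.643 FPKM in the day 15 libraries labelled Hira-null, against 3.48 and 2.61 FPKM in WT, and 0.127 and 0.348 FPKM in Hira-null at day 0, against 0.237 and 0.155 FPKM in WT, and the day 15 difference was -1.55 ± 0.22, adjusted p = 0.00096. Hoxa11 shares exons with Hoxa11os on the other strand, which moved likewise (-1.64, adjusted p = 0.000184), so their reads may not be separable. Hoxa11os too passed the filter only through WT at day 15, so its p-value is a description. Hoxa9, known for its part in blood progenitors and leukaemia, had 0.243 and 0.325 FPKM in the libraries labelled Hira-null at day 15, against 1.68 and 1.74 FPKM in the WT libraries. Hoxa9 at day 0 had 0.18 and 0.247 FPKM in Hira-null, against 0 and 0 FPKM in WT. Hoxa13, a gene of the digits and the genital tubercle, had 0.684 and 0.72 FPKM in the day 15 libraries labelled Hira-null, against 3.48 and 3.25 FPKM in WT, and 0.222 and 0.693 FPKM in Hira-null at day 0, against 0.414 and 0 FPKM in WT. Hoxa9 differed by -1.08 ± 0.16, adjusted p = 0.00111 and Hoxa13 by -1.36 ± 0.23, adjusted p = 0.00214, and neither overlapped between the genotypes at day 15. The Hoxa13 call was lost with a pseudocount of 0.1 (-2.11 on the log2(FPKM + 0.1) scale, adjusted p = 0.0512).

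The posterior Hoxd genes, which pattern the limb, differed to a like extent. Hoxd10, which acts in lumbar motor neurons, had 0.425 and 0.738 FPKM in the libraries labelled Hira-null at day 15, against 3.96 and 4.11 FPKM in the WT libraries. Hoxd10 at day 0 had 0 and 0 FPKM in Hira-null, against 0 and 0.064 FPKM in WT. Hoxd11, the partner of Hoxa11 in the forearm, had 0.24 and 0.324 FPKM in the day 15 libraries labelled Hira-null, against 3.05 and 3.38 FPKM in WT, and 0.104 and 0 FPKM in Hira-null at day 0, against 0 and 0.0562 FPKM in WT. Both were far apart between the genotypes at day 15, by -1.68 ± 0.17, adjusted p = 0.000183, and by -1.72 ± 0.16, adjusted p = 0.000143, which is a WT mean 6.93 and 11.4 times the other. Exons of Hoxd10 and Hoxd11 overlap the same gene, Gm20440, on the same strand, so their reads may not be separable. Hoxd13, the digit gene at the end of the cluster, had 0.316 and 0.677 FPKM in the libraries labelled Hira-null at day 15, against 2.44 and 2.82 FPKM in the WT libraries. Hoxd13 at day 0 had 0.938 and 1.33 FPKM in Hira-null, against 0.766 and 0.715 FPKM in WT. The day 15 difference was -1.29 ± 0.19, adjusted p = 0.00106, and both libraries labelled Hira-null lay below all 6 others. Hoxd9 had 0.908 and 1.2 FPKM in the day 15 libraries labelled Hira-null, against 1.67 and 2.76 FPKM in WT, and 0.139 and 0.163 FPKM in Hira-null at day 0, against 0.0647 and 0.338 FPKM in WT. Its smaller difference (-0.63 ± 0.22, adjusted p = 0.0489) was lost on leaving out any of 7 libraries, and was -0.38 with an adjusted p of 0.304 without WT day 15 replicate 2.

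Posterior Hoxc genes followed. Hoxc10, which acts in lumbar motor neurons, had 0.763 and 0.439 FPKM in the libraries labelled Hira-null at day 15, against 2.39 and 3.7 FPKM in the WT libraries. Hoxc10 at day 0 had 0.533 and 0.357 FPKM in Hira-null, against 0 and 0.124 FPKM in WT. Hoxc11 had 0.123 and 0 FPKM in the day 15 libraries labelled Hira-null, against 1.39 and 1.31 FPKM in WT, and 0 and 0.373 FPKM in Hira-null at day 0, against 0 and 0 FPKM in WT, with 1 and 0 fragments in the libraries labelled Hira-null at day 15, so that no fold is given. Hoxc10 differed by -1.32 ± 0.21, adjusted p = 0.00163 and Hoxc11 by -1.15 ± 0.20, adjusted p = 0.00239. Exons of Hoxc10, and those of Hoxc5, overlap Gm20398 on the same strand. Hoxc13, a gene of hair and nails, went its own way, with 1.34 and 1.12 FPKM in the libraries labelled Hira-null at day 15, against 1 and 0.596 FPKM in the WT libraries, and 5.56 and 6.92 FPKM in Hira-null at day 0, against 0.391 and 1.02 FPKM in WT. Its day 15 values did not overlap, and their difference did not pass the test (0.32 ± 0.23, adjusted p = 0.304), while at day 0 it was the HOX gene with the widest gap.

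**Figure D3:**
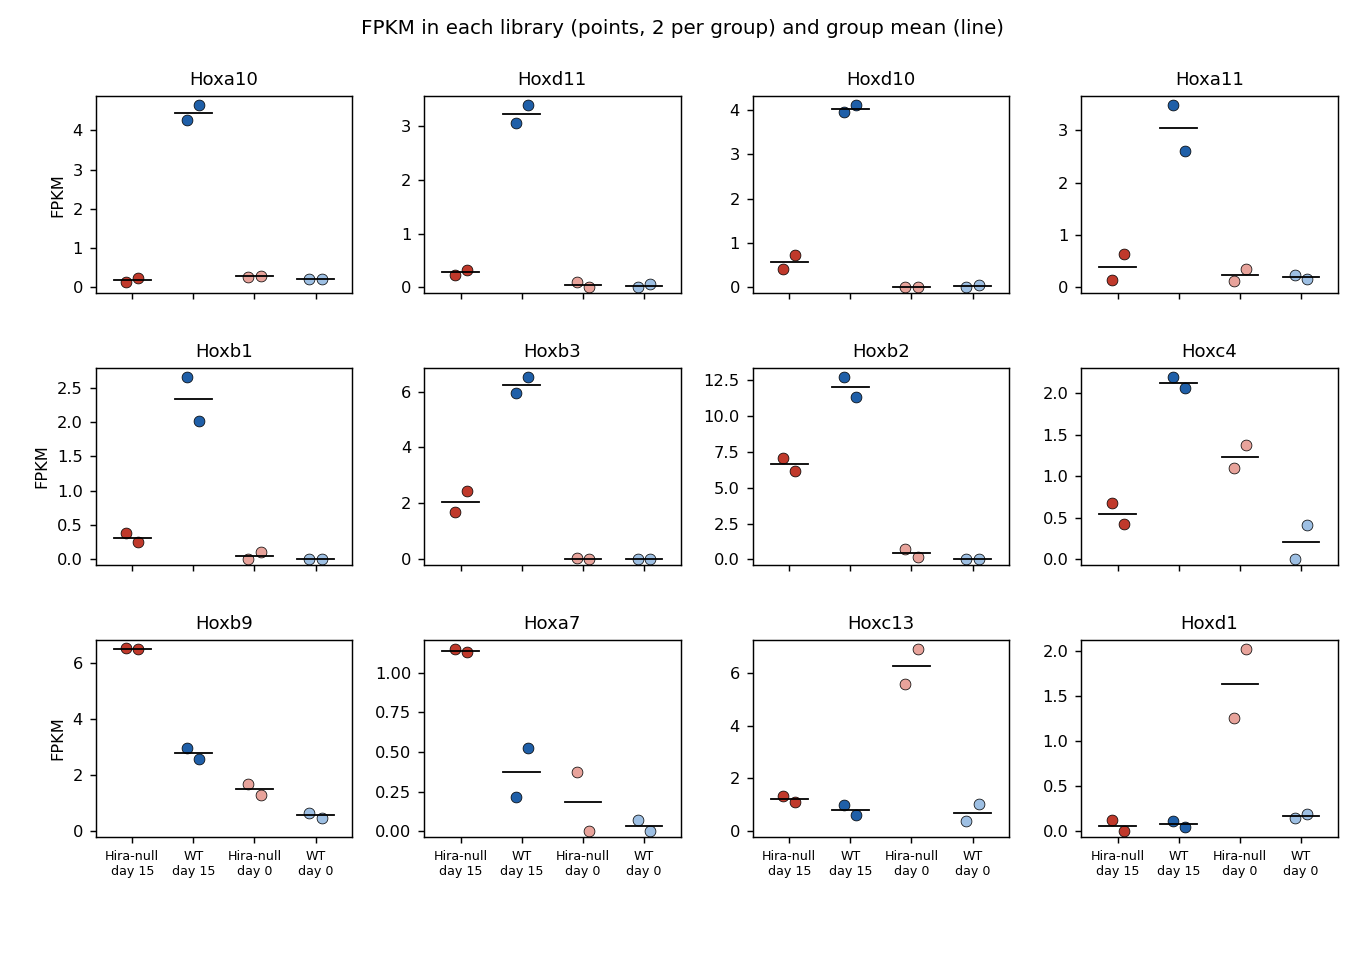
FPKM of 12 HOX genes in every library (points) with the group mean (line), one panel a gene. The first 8 genes were lower in libraries labelled Hira-null at day 15, Hoxb9 and Hoxa7 were higher there, and Hoxc13 and Hoxd1 were higher in Hira-null at day 0 and were not called at day 15.

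Hoxb9, a gene of the thoracic ribs, was higher in the libraries labelled Hira-null at day 15, unlike the other tested genes of its paralogue group. It had 6.53 and 6.5 FPKM in the day 15 libraries labelled Hira-null, against 2.99 and 2.59 FPKM in WT. Hoxb9 at day 0 had 1.67 and 1.31 FPKM in Hira-null, against 0.654 and 0.482 FPKM in WT. The difference was 0.99 ± 0.16, adjusted p = 0.00177, and it remained called under each alternative tried. Hoxa9 and Hoxd9, of the same paralogue group, were lower at day 15 as given above, and Hoxc9, which was below the filter, had 0.196 and 0.122 FPKM in the libraries labelled Hira-null at day 15, against 1.48 and 0.894 FPKM in the WT libraries. Hoxa7, of the thoracic level, was the other gene that was higher, with 1.15 and 1.13 FPKM in the day 15 libraries labelled Hira-null, against 0.218 and 0.525 FPKM in WT, and 0.373 and 0 FPKM in Hira-null at day 0, against 0.0696 and 0 FPKM in WT. Hoxa7 passed the filter only through the day 15 libraries labelled Hira-null, so a higher value was favoured and its p-value is a description. Its difference (0.65 ± 0.21, adjusted p = 0.0382) rested on 20 and 21 fragments in the libraries labelled Hira-null and 4 and 12 in WT, and it was lost on leaving out any of 6 libraries, with 0.49 and an adjusted p of 0.236 without WT day 15 replicate 1.

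Of the middle genes, Hoxb4 and Hoxb5, active in blood progenitors and in the gut's neural crest, were lower. Hoxb4 had 3.24 and 4.05 FPKM in the libraries labelled Hira-null at day 15, against 6.7 and 6.52 FPKM in the WT libraries. Hoxb4 at day 0 had 0.567 and 0.976 FPKM in Hira-null, against 0.582 and 0.138 FPKM in WT. Hoxb5 had 0.888 and 0.997 FPKM in the day 15 libraries labelled Hira-null, against 1.96 and 3.29 FPKM in WT, and 0.23 and 0 FPKM in Hira-null at day 0, against 0.215 and 0 FPKM in WT. The day 15 differences were -0.72 ± 0.21, adjusted p = 0.0275, and -0.87 ± 0.23, adjusted p = 0.0153, and both were lost without 1 library, at -0.70 (adjusted p = 0.17) for Hoxb4 without WT day 15 replicate 1 and -0.61 (adjusted p = 0.137) for Hoxb5 without WT day 15 replicate 2. The next 3 Hoxb genes, Hoxb6, Hoxb7 and Hoxb8, lie between the lower Hoxb1 to Hoxb5 and the higher Hoxb9. None of these 3 was called, with differences of 0.14, -0.16 and -0.07 in that order and values of 0.556 to 2.12 FPKM in the libraries labelled Hira-null at day 15, against 0.562 to 1.88 FPKM in WT. The groups overlapped for each of them.

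All 4 middle Hoxc genes were lower. Hoxc4 had 0.679 and 0.424 FPKM in the libraries labelled Hira-null at day 15, against 2.19 and 2.07 FPKM in the WT libraries, and 1.1 and 1.38 FPKM in Hira-null at day 0, against 0 and 0.418 FPKM in WT. It was thus below WT at day 15 and above WT at day 0. Hoxc5 had 0.0411 and 0.231 FPKM in the day 15 libraries labelled Hira-null, against 1.28 and 1.03 FPKM in WT. Hoxc5 at day 0 had 0.213 and 0.25 FPKM in Hira-null, against 0 and 0.0433 FPKM in WT. Hoxc6, a gene of limb-level motor neurons, had 0.916 and 1.72 FPKM in the libraries labelled Hira-null at day 15, against 2.67 and 2.68 FPKM in the WT libraries, and 0 and 0.286 FPKM in Hira-null at day 0, against 0 and 0.149 FPKM in WT. Hoxc8, of brachial motor neurons and ribs, had 0.474 and 0.266 FPKM in the day 15 libraries labelled Hira-null, against 1.52 and 1.8 FPKM in WT. Hoxc8 at day 0 had 0.184 and 0 FPKM in Hira-null, against 0 and 0 FPKM in WT. The day 15 differences were -1.02 ± 0.21, adjusted p = 0.00573 for Hoxc4, -0.93 ± 0.17, adjusted p = 0.00352 for Hoxc5, -0.69 ± 0.22, adjusted p = 0.0374 for Hoxc6 and -0.96 ± 0.18, adjusted p = 0.00352 for Hoxc8. The Hoxc4 call was lost without WT day 15 replicate 1 (-0.99, adjusted p = 0.0638) and the Hoxc6 call without WT day 15 replicate 2 (-0.68, adjusted p = 0.163), among others.

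Hoxd4, which sets a boundary in the hindbrain, had 0.57 and 0.534 FPKM in the libraries labelled Hira-null at day 15, against 1.24 and 1.6 FPKM in the WT libraries, and 0.0569 and 0.0445 FPKM in Hira-null at day 0, against 0.106 and 0.231 FPKM in WT. Hoxd8 had 1.4 and 1.22 FPKM in the day 15 libraries labelled Hira-null, against 2.51 and 3.2 FPKM in WT. Hoxd8 at day 0 had 1.01 and 0.633 FPKM in Hira-null, against 0.189 and 0.493 FPKM in WT. They differed at day 15 by -0.64 ± 0.17, adjusted p = 0.0171, and -0.73 ± 0.20, adjusted p = 0.019, and both calls were lost without WT day 15 replicate 2, at -0.53 (adjusted p = 0.0971) and -0.60 (adjusted p = 0.159). Hoxa4 had values from 0.955 to 1.72 FPKM in the libraries labelled Hira-null at day 15, against 1.90 to 2.08 FPKM in WT, and was not called (-0.38 ± 0.21, adjusted p = 0.203). Hoxa5, of the lung and the neck, had 1.02 and 1.68 FPKM in the libraries labelled Hira-null at day 15, against 2.09 and 2.86 FPKM in the WT libraries, and 0.543 and 0.485 FPKM in Hira-null at day 0, against 0 and 0.0631 FPKM in WT. At day 15 it narrowly missed the threshold (-0.57 ± 0.20, adjusted p = 0.0501).

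Of the anterior genes, Hoxb1, which gives a hindbrain segment its identity, had 0.378 and 0.253 FPKM in the day 15 libraries labelled Hira-null, against 2.66 and 2.01 FPKM in WT. Hoxb1 at day 0 had 0 and 0.11 FPKM in Hira-null, against 0 and 0 FPKM in WT. Hoxb2, of the same region, had 7.1 and 6.19 FPKM in the libraries labelled Hira-null at day 15, against 12.7 and 11.3 FPKM in the WT libraries, and 0.715 and 0.14 FPKM in Hira-null at day 0, against 0 and 0 FPKM in WT. Hoxb3 had 1.69 and 2.43 FPKM in the day 15 libraries labelled Hira-null, against 5.96 and 6.51 FPKM in WT. Hoxb3 at day 0 had 0.0391 and 0 FPKM in Hira-null, against 0 and 0 FPKM in WT. These 3 were lower in the libraries labelled Hira-null at day 15, by -1.34 ± 0.18, adjusted p = 0.000634 for Hoxb1, -0.77 ± 0.21, adjusted p = 0.02 for Hoxb2 and -1.25 ± 0.17, adjusted p = 0.000837 for Hoxb3, and the Hoxb2 call was lost without WT day 15 replicate 1 (-0.69, adjusted p = 0.171). Hoxb2 and Hoxb3 share exons with Hoxb3os on the other strand.

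Hoxa2, Hoxa3 and Hoxd1 were not called at day 15. Hoxa2, of the second branchial arch, had 2.09 and 3.25 FPKM in the libraries labelled Hira-null at day 15, against 4.54 and 3.37 FPKM in the WT libraries. Hoxa2 at day 0 had 0 and 0.385 FPKM in Hira-null, against 0 and 0.2 FPKM in WT. Hoxa3, of the thymus and parathyroid, had 3.04 and 2.23 FPKM in the day 15 libraries labelled Hira-null, against 2.67 and 3.36 FPKM in WT. Hoxa3 at day 0 had 0.744 and 0.448 FPKM in Hira-null, against 0.214 and 0.0931 FPKM in WT. The day 15 groups did not overlap for Hoxa2 (-0.44 ± 0.24, adjusted p = 0.188) and overlapped for Hoxa3 (-0.15 ± 0.19, adjusted p = 0.589). Hoxd1, of pain-sensing neurons, had 0.12 and 0 FPKM in the day 15 libraries labelled Hira-null, against 0.114 and 0.0458 FPKM in WT. Hoxd1 at day 0 had 1.25 and 2.02 FPKM in Hira-null, against 0.146 and 0.191 FPKM in WT. At day 15 the Hoxd1 difference was -0.03 ± 0.19 (adjusted p = 0.926), and the gene was near 0 in all 4 libraries.

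**Figure D4:**
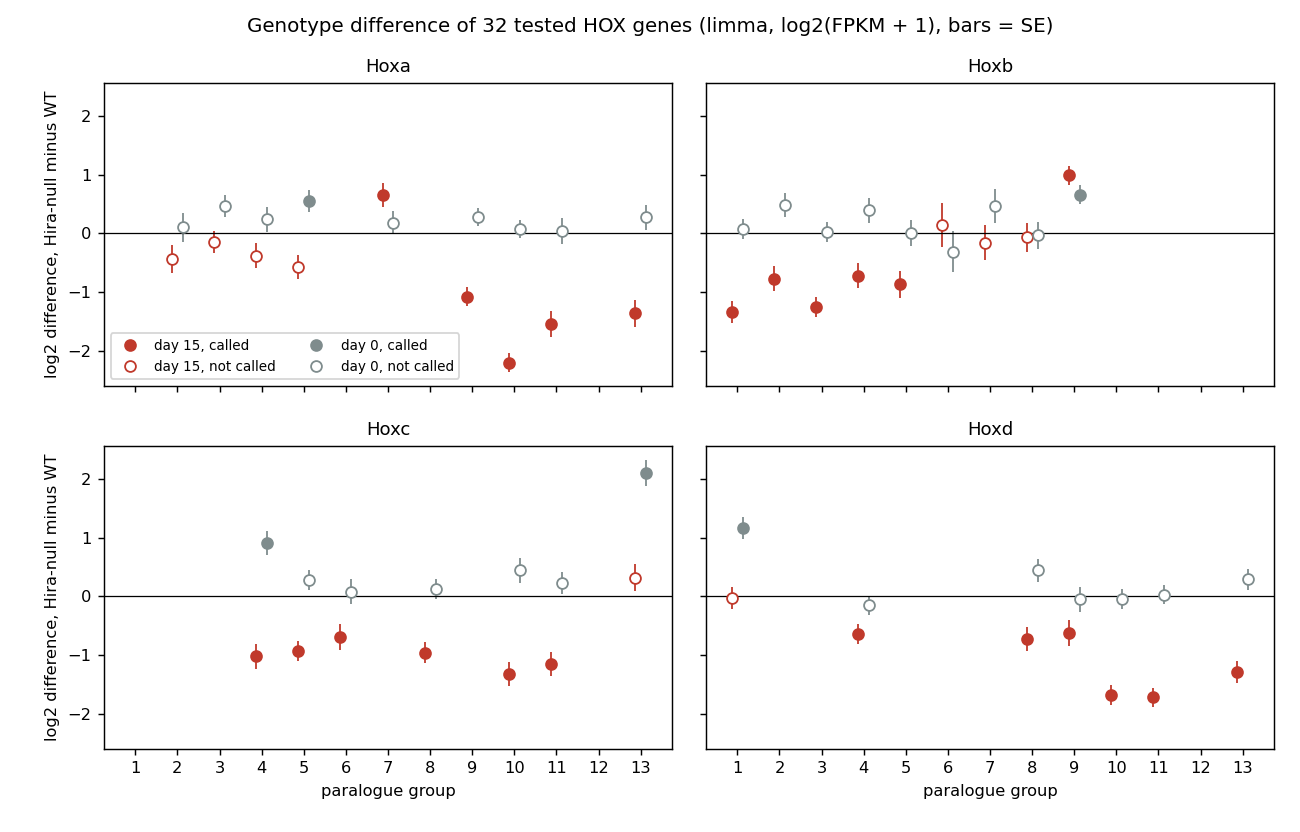
Difference between Hira-null and WT on the log2(FPKM + 1) scale with its SE (bars) for 32 of the 33 members tested, by paralogue group (across) and cluster (panels), at day 15 (libraries labelled Hira-null) and day 0. Filled points passed the test. At day 15 the lowest points are Hoxa10, Hoxd11 and Hoxd10, and Hoxb9 and Hoxa7 are the 2 filled points above 0.

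Of the 6 members below the filter, Hoxa6, Hoxc9, Hoxd3 and Hoxd12 were lower in the libraries labelled Hira-null at day 15 in the test with no filter (-0.65, -0.90, -0.46 and -0.78 in that order), while the calls of Hoxb4, Hoxc6 and Hoxd9 were lost there (adjusted p of 0.0562, 0.0509 and 0.0601 in that order). Hoxd12 was at 0 in both of these libraries, against 1.05 and 0.438 FPKM in WT. Hoxb13, a gene of the tail and prostate, and Hoxc12 were not called (-0.10 and -0.02). Both reached their highest value in Hira-null at day 0, where Hoxb13 had 0.665 and 1.13 FPKM in Hira-null, against 0.517 and 0.631 FPKM in WT, and Hoxc12 had 0.518 and 1.75 FPKM in Hira-null, against 0 and 0.421 FPKM in WT.

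At day 0, and with no filter, 6 of the 39 members were higher in Hira-null than in WT and 0 were lower, where 15.1% of all genes were higher and 13.8% lower. With the filter these counts were 6 and 0 of 33, where 20.8% of all genes tested were higher and 19.4% lower. Hoxc13 (2.10 ± 0.22, adjusted p = 0.000181) and Hoxd1 (1.16 ± 0.19, adjusted p = 0.00158) were among them, at opposite ends of their clusters. Hoxc4 (0.91 ± 0.20, adjusted p = 0.0075), Hoxb9 (0.66 ± 0.16, adjusted p = 0.0092) and Hoxa5 (0.55 ± 0.19, adjusted p = 0.0476) were also among them. Without 1 Hira-null day 0 library these last 3 lost the call, Hoxc4 at 0.82 (adjusted p = 0.0574) without replicate 2, Hoxb9 at 0.56 (adjusted p = 0.0735) without replicate 1 and Hoxa5 at 0.53 (adjusted p = 0.183) without replicate 1. The median difference of the 39 members was 0.23, and that of all 19134 genes was 0.00. Hoxd1 passed the filter only through Hira-null at day 0, so a higher value was favoured and its p-value is a description.

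Between the days in WT, and with no filter, day 15 was higher than day 0 for 32 of the 39 members and lower for 0, where 29% of all genes were higher and 24.7% lower. The filter was passed by 19 members only through WT at day 15 and so, Hoxb6 aside, with a rise favoured. With the filter, 28 of 33 were higher and 0 lower, where 36.1% of all genes tested were higher and 33.4% lower. On the log2(FPKM + 1) scale, which understates the fold of genes at low FPKM, Hoxb2 (3.70), Hoxb3 (2.85) and Hoxb4 (2.50) had the largest differences. Hoxa7, Hoxb6, Hoxc13 and Hoxd1 were among the members not called. The Hoxb7 call was lost without WT day 15 replicate 2 (0.81, adjusted p = 0.121). In Hira-null, and with no filter, 16 of the 39 were higher at day 15, in the libraries so labelled, and 5 were lower, where 30.6% of all genes were higher and 28.3% lower. With the filter, 16 of 33 were higher and 5 lower, where 37.5% of all genes tested were higher and 36.4% lower. Among the lower genes with the filter were Hoxc13 (-1.69, adjusted p = 0.000117), Hoxd1 (-1.30, adjusted p = 0.000242), Hoxc4 (-0.53, adjusted p = 0.0425) and Hoxd13 (-0.52, adjusted p = 0.0309). Without Hira-null day 0 replicate 2 the calls of Hoxc4 (-0.44, adjusted p = 0.173) and Hoxd13 (-0.38, adjusted p = 0.176) were lost. With no filter, 3 of the 16 posterior genes were higher at day 15 in the libraries labelled Hira-null and 13 in WT, and of the 8 anterior genes 4 were higher in the libraries labelled Hira-null and 6 in WT.

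**Figure D5:**
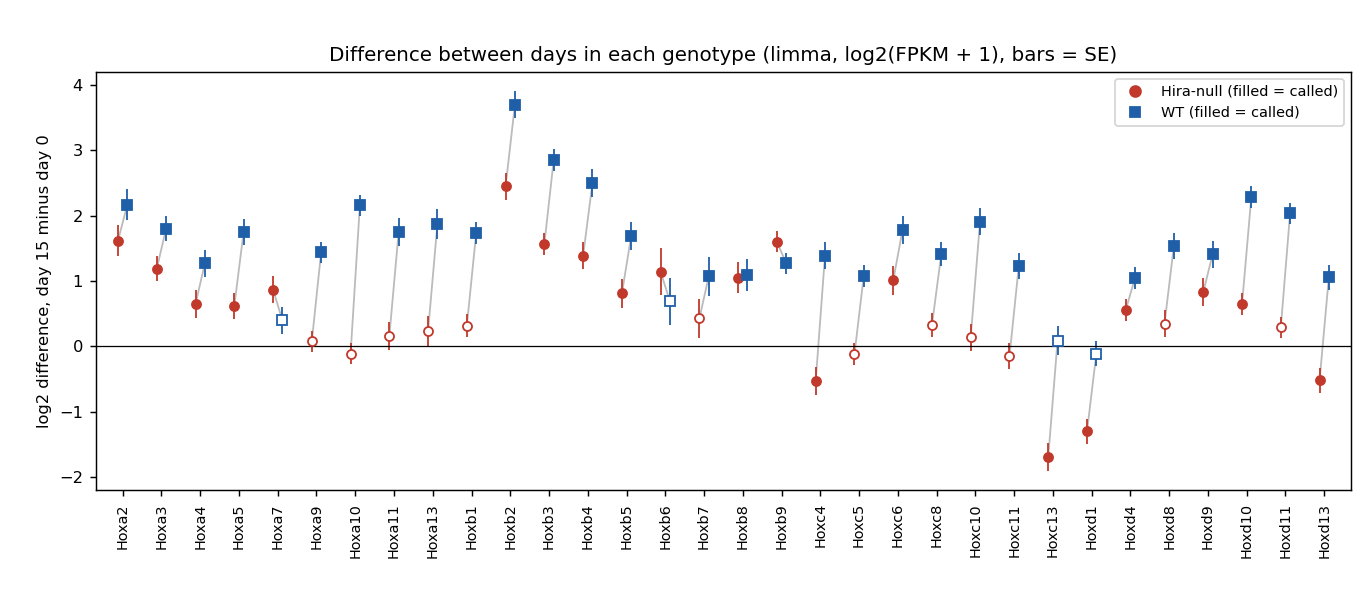
Difference between day 15 and day 0 on the log2(FPKM + 1) scale with its SE in Hira-null (circles) and WT (squares) for 32 of the 33 members tested, in cluster order. Filled points passed the test, and in WT no member lies below 0 among them, while in Hira-null Hoxc4, Hoxc13, Hoxd1 and Hoxd13 do.

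With no filter, the genotype difference itself changed between the days for 23 of the 39 members, each with a lower value at day 15, and for 0 in the other direction, where 12.6% of all genes changed downwards and 12.4% upwards. With the filter it changed for 21 of 33, where 17.7% of all genes tested changed downwards and 17.5% upwards. A lower value was favoured for the 19 members that passed only through WT at day 15, Hoxb6 aside. Hoxa10 (-2.27 ± 0.22, adjusted p = 0.00026), Hoxc4 (-1.93 ± 0.29, adjusted p = 0.00175) and Hoxc13 (-1.79 ± 0.31, adjusted p = 0.00338) had the largest such changes, reached in different ways. Hoxa10 differed by -2.20 at day 15 and by 0.07 at day 0, where it was not called. Hoxc13 was not called at day 15 and differed by 2.10 at day 0. Hoxc4 was higher in Hira-null at day 0 and lower in the libraries so labelled at day 15. For Hoxb9 the difference did not change past the test (0.32 ± 0.22, adjusted p = 0.288).

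Genes that act on or with the HOX clusters were read from lists compiled from general knowledge. The counts in each list stand beside the shares of all 14337 genes tested. These were 18.6% higher and 18.8% lower at day 15, and 20.8% higher and 19.4% lower at day 0. Of the CDX and ParaHox factors, 3 of 6 were tested, of which 1 was higher and 1 lower at day 15. Cdx2, a direct activator of middle and posterior HOX genes, had 0.105 and 0.539 FPKM in the libraries labelled Hira-null at day 15, against 2.03 and 1.95 FPKM in the WT libraries, and 0.0679 and 0.318 FPKM in Hira-null at day 0, against 0.38 and 0.497 FPKM in WT, and was lower at day 15 (-1.20, adjusted p = 0.00252). Cdx1, its relative, had 4.16 and 3.64 FPKM in Hira-null at day 0, against 1.01 and 0.135 FPKM in WT, and was higher at day 0 (1.70, adjusted p = 0.00195). Gsx1, a ParaHox gene of the neural tube, had 1.9 and 2.85 FPKM in the day 15 libraries labelled Hira-null, against 0.479 and 0.53 FPKM in WT, and was higher (1.15, adjusted p = 0.011). Cdx2 passed the filter only through WT at day 15, Cdx1 through Hira-null at day 0 and Gsx1 through the day 15 libraries labelled Hira-null. The direction given for each was favoured by the filter, and these p-values are descriptions.

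Of the 9 TALE cofactors, which bind DNA with HOX proteins, 2 were higher and 3 lower at day 15, and 3 were higher and 1 lower at day 0. Meis1 had 20.4 and 15.8 FPKM in the libraries labelled Hira-null at day 15, against 42.9 and 46.1 FPKM in the WT libraries, and 0.127 and 0.331 FPKM in Hira-null at day 0, against 1.22 and 2 FPKM in WT, and Meis2 had 8.93 and 10.2 FPKM in the day 15 libraries labelled Hira-null, against 26.8 and 29.5 FPKM in WT. Both were lower at day 15 (-1.27, adjusted p = 0.0012, and -1.47, adjusted p = 0.000145), and Meis1 also at day 0 (-1.08, adjusted p = 0.00204). Pbx2, the highest of the list, had 42.1 and 43.3 FPKM in Hira-null at day 0, against 18.4 and 18.3 FPKM in WT, and was higher at day 0 (1.17, adjusted p = 3.84e-05).

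Of 16 tested genes of the retinoic acid pathway, 7 were lower and 1 was higher at day 15, and 5 were higher and 2 lower at day 0. Cyp26a1, the enzyme that breaks down retinoic acid and a target of it, had 1.51 and 1.42 FPKM in the libraries labelled Hira-null at day 15, against 12.8 and 14 FPKM in the WT libraries, and 0.572 and 0.575 FPKM in Hira-null at day 0, against 3.2 and 2.99 FPKM in WT, and was lower at both days (-2.55, adjusted p = 1.56e-05, at day 15 and -1.38, adjusted p = 0.00015, at day 0). Crabp1, which carries retinoic acid in the cell, had 7.56 and 8.12 FPKM in the day 15 libraries labelled Hira-null, against 36.8 and 35.5 FPKM in WT, and was lower (-2.07, adjusted p = 0.0001). Dhrs3, which turns retinaldehyde back into retinol, had 5.27 and 7.98 FPKM in Hira-null at day 0, against 0.907 and 0.659 FPKM in WT. It was higher at day 0 (2.08, adjusted p = 9.35e-05) and lower at day 15 (-0.76, adjusted p = 0.0146), with 6.75 and 7.78 FPKM in the libraries labelled Hira-null, against 12.1 and 14 FPKM in WT. The receptor Rarg was the highest of the list, at 75.2 and 80.4 FPKM in Hira-null at day 0 and 60.6 and 59 FPKM in WT.

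Of 21 Polycomb genes, 4 were higher and 4 lower at day 15, and 2 were higher and 4 lower at day 0. Among all genes tested, 18.6% were higher and 18.8% lower at day 15, and 20.8% higher and 19.4% lower at day 0. Ezh1, which methylates histone H3 as part of the repressive complex, had 6.06 and 6.29 FPKM in the libraries labelled Hira-null at day 15, against 13.3 and 13.6 FPKM in the WT libraries, and was lower (-1.01, adjusted p = 0.000199). Phc1, a subunit of the other complex, was the highest of the list, at 224 and 214 FPKM in Hira-null at day 0, against 214 and 204 FPKM in WT. Of 11 tested trithorax and demethylase genes, which counter Polycomb, 4 were higher and 2 lower at day 15, and 4 were higher and 1 lower at day 0, with Wdr5 the highest at 128 and 132 FPKM in Hira-null at day 0, against 87.2 and 87.2 FPKM in WT. Of 6 tested FGF, WNT and GDF ligands, 1 was higher and 0 lower at day 15 and 1 higher and 0 lower at day 0, and Fgf4 was the highest, at 155 and 156 FPKM in Hira-null at day 0, against 116 and 114 FPKM in WT.

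Within the clusters, 6 of 17 non-coding transcripts found in the table were tested. Hoxa11os was lower at day 15, with 0.305 and 0.343 FPKM in the day 15 libraries labelled Hira-null, against 3.46 and 2.83 FPKM in WT. Hotairm1, a transcript of the Hoxa cluster, had 7.99 and 5.4 FPKM in the libraries labelled Hira-null at day 15, against 5.45 and 7.08 FPKM in the WT libraries, and 2.3 and 3.15 FPKM in Hira-null at day 0, against 0 and 0 FPKM in WT, and was higher at day 0 (1.89, adjusted p = 0.000231). That day 0 difference rested on only 4 and 7 fragments in Hira-null, against 0 and 0 in WT. Gm53, in the same list, reached 5.66 and 7.75 FPKM in Hira-null at day 0, against 3.3 and 4.99 FPKM in WT. Evx1, the homeobox gene past Hoxa13, had 0.585 and 0.694 FPKM in the day 15 libraries labelled Hira-null, against 1.96 and 2.05 FPKM in WT, and was lower (-0.87, adjusted p = 0.003). Evx1 and Hoxa11os passed the filter only through WT at day 15, so a lower value was favoured and their p-values are descriptions. Of 19 tested genes that flank the clusters, 3 were higher and 4 lower at day 15, and 5 were higher and 5 lower at day 0. The shares of all genes tested were 18.6% and 18.8% at day 15, and 20.8% and 19.4% at day 0. Calcoco2, an autophagy receptor beside Hoxb13, had 20.02 and 15.5 FPKM in Hira-null at day 0, against 64.3 and 70.8 FPKM in WT, and was lower at day 0 (-1.88, adjusted p = 4.3e-05), and the mitochondrial Atp5g3 was the highest, at 300.2 and 286 FPKM in Hira-null at day 0, against 364 and 356 FPKM in WT. Of 5 homeobox genes of the head, 1 was higher and 1 lower at day 15, and 1 was higher and 1 lower at day 0. Hesx1, of the forebrain and pituitary, had 0.197 and 0 FPKM in the libraries labelled Hira-null at day 15, against 1.31 and 1.13 FPKM in the WT libraries, and 0 and 0.1 FPKM in Hira-null at day 0, against 1.2 and 1.46 FPKM in WT, and was lower at both days (-1.02, adjusted p = 0.00252, at day 15 and -1.15, adjusted p = 0.00106, at day 0). Otx2, the highest of them, had 33.5 and 28.3 FPKM in the day 15 libraries labelled Hira-null, against 15.8 and 16.9 FPKM in WT.

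Markers of other cell types also differed at day 15, where 18.6% of all 14337 genes tested were higher and 18.8% lower. Some passed the filter only through 1 day 15 group, which favoured a difference. Tie1 did so through WT and Nppa through the libraries labelled Hira-null. Of 8 tested lateral plate and limb markers, in which posterior HOX genes are known to act, 5 were lower and 1 higher, and the list of 9 summed to 53.2 and 59.1 FPKM in the libraries labelled Hira-null, against 100.04 and 104 FPKM in WT. All 7 fibroblast markers were lower, with 655 and 835 FPKM in the libraries labelled Hira-null, against 2027 and 2252 FPKM in WT. Of 7 tested endothelial and blood markers 6 were lower (12.4 and 13.8 FPKM in the libraries labelled Hira-null, against 43.7 and 46.0 FPKM in WT), and the globin Hbb-y was at 0 in both libraries labelled Hira-null. Of 7 tested visceral endoderm markers 5 were lower and 1 higher (27.5 and 29.1 FPKM in the libraries labelled Hira-null, against 112 and 113 FPKM in WT). Neural lists went the other way, with 7 of 8 neuronal markers higher (257 and 262 FPKM in the libraries labelled Hira-null, against 104 and 109 FPKM in WT), 5 of 8 neural progenitor markers (437 and 439 FPKM in the libraries labelled Hira-null, against 174 and 181 FPKM in WT) and 6 of 8 forebrain and midbrain markers, of regions ahead of the HOX domain (85.0 and 93.1 FPKM in the libraries labelled Hira-null, against 30.2 and 32.3 FPKM in WT). Of 8 tested hindbrain and spinal cord markers 4 were higher and 1 lower (41.4 and 46.6 FPKM in the libraries labelled Hira-null, against 24.3 and 31.3 FPKM in WT). Lbx1, which was not tested, was at 0 in both libraries labelled Hira-null, against 0.86 and 0.198 FPKM in WT. Of 9 tested paraxial mesoderm markers 3 were higher and 2 lower, and of 10 cardiac markers 1 was higher and 4 lower. Msgn1, a paraxial marker that was not tested, was at 0 in both libraries labelled Hira-null, against 0.187 and 0 FPKM in WT. Of 8 stem cell markers, 4 were higher and 3 lower at day 15 (642 and 648 FPKM in the libraries labelled Hira-null, against 467 and 497 FPKM in WT). At day 0, 5 of these 8 were higher and 1 lower in Hira-null (4257 and 4288 FPKM in Hira-null, against 2749 and 2963 FPKM in WT). Of all genes tested, 20.8% were higher and 19.4% lower at day 0. The part of these cell types in the HOX results was not tested.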

How the data were processed

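The authors aligned paired-end reads of stranded libraries to mm9 with Bowtie 0.12.2, named DESeq2 1.6.3 in the submitters' processing notes and deposited FPKM for 24421 genes in 8 libraries. The counter, the annotation and the use of strand are not stated in these sources, and 2 tables of the authors' own comparisons, with fold changes and p-values, were not used. Positive FPKM were whole multiples of a library's step (100% within 0.1 of a fragment), which gave fragments at the smallest whole gene length. They need not be independent molecules.

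The scale was log2(FPKM + 1). Group means of 14337 genes (FPKM of at least 1 in 2 libraries) came from limma 3.58.1 under R 4.3.3, with weights of 1.03 for day 0 and 0.968 for day 15, an empirical Bayes trend, 4 residual and 4.7 prior degrees of freedom, and Benjamini-Hochberg adjustment over all genes at 0.05. The fit was tested on simulated data, in which the changed genes were drawn from all that passed the filter. That simulation gives no error rate for the HOX genes. Errors are SE. The p-values weigh a difference against the spread between 2 samples a group, pooled over the groups and moderated across genes. They do not cover variation between clones, since each genotype is a single line. Members with a mean of FPKM 2 in a group, or a call between genotypes or in its change between days, are given in every library. Other lists' genes are named where called with a log2 difference of 1 or more in size, or as the highest. Some genes that meet these rules are not reported here. The gene set, though defined by symbol, and the lists were taken up with earlier results of these data known. Alternatives were pseudocounts of 0.1 and 0.5, no filter, a filter at FPKM 0.2, equal weights, median ratio scaling, only the 4 libraries compared, a replicate block, voom on fragments, and leaving out each library. Positions come from GENCODE M1 on NCBIM37.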

Additional observations from a re-analysis of the deposited data

Results flagged for a closer look

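The genotype difference was not the same at the 2 days for 21 of the 33 members tested, by the limma test of the difference between the effects. Of all genes tested, 17.7% changed downwards and 17.5% upwards. A lower value was favoured by the filter for those listed here that passed it only through WT at day 15. Each value is the day 15 difference between libraries labelled Hira-null and WT minus the day 0 difference between Hira-null and WT, on the log2(FPKM + 1) scale. In the Hoxa cluster they included Hoxa5 (-1.13), Hoxa9 (-1.36), Hoxa10 (-2.27), Hoxa11 (-1.59) and Hoxa13 (-1.63). In the Hoxb cluster they were Hoxb1 (-1.41), Hoxb2 (-1.25), Hoxb3 (-1.28) and Hoxb4 (-1.11), and in the Hoxc cluster Hoxc4 (-1.93), Hoxc5 (-1.20), Hoxc8 (-1.08), Hoxc10 (-1.77), Hoxc11 (-1.38) and Hoxc13 (-1.79). In the Hoxd cluster they were Hoxd1 (-1.19), Hoxd8 (-1.18), Hoxd10 (-1.63), Hoxd11 (-1.75) and Hoxd13 (-1.57). Of the 21 calls, 10 were lost under 1 or more alternatives. Voom on the recovered fragments lost, among others, those of Hoxd10 (-2.04, adjusted p = 0.316), Hoxb3 (-2.43, adjusted p = 0.214), Hoxc8 (-3.56, adjusted p = 0.0774), Hoxd1 (-3.70, adjusted p = 0.0569) and Hoxd11 (-3.66, adjusted p = 0.0515), and a pseudocount of 0.1 lost that of Hoxb4 (-1.92, adjusted p = 0.0612). For 5 of the 21 the call was lost on leaving out 1 library, among them Hoxb2 at -1.17 (adjusted p = 0.0722) and Hoxb4 at -1.09 (adjusted p = 0.0903) without WT day 15 replicate 1, and Hoxa5 at -0.97 (adjusted p = 0.0535) and Hoxd8 at -1.05 (adjusted p = 0.0583) without WT day 15 replicate 2.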

How the results depend on the processing

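The 9 settings other than leaving out a library, and the removal of each of the 8 libraries in turn, kept the sign of every called HOX difference. At day 15, the 23 calls between libraries labelled Hira-null and WT became 13 with a pseudocount of 0.1, and between 14 (without WT day 15 replicate 2) and 22 when 1 library was left out, and 13 of the 23 genes were called under each alternative. The 6 calls at day 0 became 10 with a pseudocount of 0.1 and 4 to 6 with 1 library left out, and Hoxc13 and Hoxd1 were called under each alternative. Of the 13 genes called at day 15 under each alternative, all but Hoxb3 and Hoxb9 passed the filter only through WT at day 15. With limma's voom on the recovered fragments there were 20 calls at day 15, 8 at day 0, 30 in WT and 19 in Hira-null between days, and 15 for the difference of the genotype effects, where the fits as reported had 23, 6, 28, 21 and 21. Shares of all genes are given only for the fits with and without the filter. Counts under the other settings therefore cannot be set against genes at large. With 1 library left out, calls between days ran over 27 to 28 in WT and 14 to 21 in Hira-null, and those for the difference of effects over 17 to 21.

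The labels give replicate numbers 1 and 2 in each group but no link between same-numbered libraries, whose deviations from the group means correlated between -0.0967 and 0.0455, so they were not read as pairs. A fit with the replicate block called 21 members at day 15, 6 at day 0, 28 in WT, 20 in Hira-null and 20 for the difference of effects. At day 0, 97 to 513 fragments fell on all 39 genes in a library, so single genes there rest on few fragments.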
